A study of Mus musculus with 50 samples.

Results

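Prefoldin and the TRiC chaperonin handle newly made tubulin and actin, and their messenger RNA was followed through 50 mammary gland tumors. The set holds 10 genes of the 37701 in the expression table. Of these, 6 encode prefoldin subunits (Vbp1, Pfdn5, Pfdn1, Pfdn2, Pfdn4 and Pfdn6) and 4 encode TRiC subunits (Tcp1, Cct2, Cct3 and Cct5). The genes were chosen by symbol, and Pfdn5 was picked for being higher in X10 and IGF1 tumors. Therefore its differences between groups are given as a description only, except for IGF1 against X10. Of the members 9 stand under their own symbol, and Pfdn6 was found by its Ensembl ID under the older symbol H2-Ke2. All 10 had a mean RPKM of at least 0.5 and were tested.

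The tumors arose in female p53R270H/+WAPCre mice, in which the WAP promoter drives Cre in mammary epithelium and thereby switches on a heterozygous mutant p53 allele. All 5 groups, vehicle included, carry this genotype. Injections under the skin began at 8 weeks of age and were repeated on alternate days up to the appearance of a tumor, and the 5 groups differ in what was given: vehicle, insulin, glargine, X10 or IGF1. Glargine and X10 are modified insulins, X10 with a high affinity for the IGF1 receptor, and IGF1 is insulin-like growth factor 1. Each group holds 10 tumors, taken at a volume of 1 cm3 and 24 h after the last injection. The tumors were EMT-like ones, chosen for a latency near the median of their group, so they do not represent all tumors of a group. The sequence sample IDs in the labels run treatment by treatment, so that anything that followed this numbering cannot be told apart from treatment.

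Prefoldin is a jellyfish-shaped complex of alpha-type and beta-type subunits. It catches unfolded actin and tubulin chains as they leave the ribosome and hands them to TRiC (also called CCT), a double-ringed chaperonin that folds them inside its chamber at the cost of ATP. Both complexes are present in essentially every cell, and their levels are known to go with protein synthesis and cell division. Vbp1 and Pfdn5 are the alpha-type subunits. Vbp1 was named for binding the von Hippel-Lindau protein, and Pfdn5 is also known as a Myc modulator. Pfdn1, Pfdn2, Pfdn4 and Pfdn6 are beta-type subunits. Tcp1, Cct2, Cct3 and Cct5 are the alpha, beta, gamma and epsilon subunits of the chaperonin ring.

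The stretch of 250 bases before the RefSeq start (GRCm38.p6) is shown for 4 members. Pfdn5 is the gene that was picked, Cct5 and Tcp1 were the pair that varied most alike over the tumors, and Cct2 had the most motif matches. Capitals mark the motifs searched on both strands, namely CACGTG (E-box), CCGGAAG (ETS), CCAAT, GAANNTTC (part of a heat shock element) and GGGCGG (GC box).
Pfdn5, chr15:102325866-102326115, plus strand: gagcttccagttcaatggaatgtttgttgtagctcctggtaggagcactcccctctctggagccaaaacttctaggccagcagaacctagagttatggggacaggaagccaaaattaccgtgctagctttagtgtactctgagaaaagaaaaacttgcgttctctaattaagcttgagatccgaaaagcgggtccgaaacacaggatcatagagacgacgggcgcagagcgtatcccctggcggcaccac
Cct5, chr15:31601847-31602096, minus strand: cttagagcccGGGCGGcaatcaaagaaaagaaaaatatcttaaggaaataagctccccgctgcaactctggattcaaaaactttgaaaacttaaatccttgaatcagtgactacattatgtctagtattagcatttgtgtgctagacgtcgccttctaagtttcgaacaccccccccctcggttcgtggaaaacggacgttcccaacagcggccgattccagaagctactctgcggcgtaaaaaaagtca
Tcp1, chr17:12916079-12916328, plus strand: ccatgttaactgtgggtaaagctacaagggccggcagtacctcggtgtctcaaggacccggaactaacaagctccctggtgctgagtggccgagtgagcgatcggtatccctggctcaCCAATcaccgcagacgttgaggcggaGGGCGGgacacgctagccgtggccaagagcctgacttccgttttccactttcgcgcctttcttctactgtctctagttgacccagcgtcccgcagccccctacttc
Cct2, chr10:117063853-117064102, minus strand: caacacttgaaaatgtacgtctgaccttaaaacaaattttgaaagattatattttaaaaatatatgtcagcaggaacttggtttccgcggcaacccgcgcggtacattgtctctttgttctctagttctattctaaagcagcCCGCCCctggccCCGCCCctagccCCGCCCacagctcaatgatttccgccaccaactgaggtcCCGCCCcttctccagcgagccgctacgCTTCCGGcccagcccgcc

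The stretch before Pfdn5 held none of the 5 motifs. That of Cct5 held 1 GC box, that of Tcp1 held 1 CCAAT and 1 GC box, and that of Cct2 held 4 GC boxes and 1 CCGGAAG. Among all 32851 windows of this length, GGGCGG was found in 32.7%, CCAAT in 33.8%, CCGGAAG in 6.91%, GAANNTTC in 6.69% and CACGTG in 6.02%. Of the other members with a window, Vbp1 had 3 CCAAT matches, Cct3 had 2 CCAAT and 1 GGGCGG, Pfdn2 had 2 GGGCGG, Pfdn4 had 1 GGGCGG and Pfdn6 had 1 CCGGAAG. No member had CACGTG or GAANNTTC in its window. A match of letters is not a site of binding, and its absence says only that the letters are not in this window.

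RNA abundance is given as deposited, in RPKM (reads per kilobase of gene length per M reads). By the steps of the values, libraries held 26.6 to 51.9 M reads (median 40.9). Every member was well covered, from at least 483 reads (Pfdn4) up to 38114 reads (Cct2) in a tumor, so that the spread between tumors, not counting error, limits the comparisons. The summed level of 4 mesenchymal markers (Vim, Col1a1, Col3a1 and Pdgfrb) was between 3367 and 30534 RPKM. The sum of 7 mammary epithelial markers (Krt8, Krt18, Krt5, Krt14, Epcam, Cdh1 and Elf5) was between 11.0 and 5100 RPKM. The median mesenchymal sum was 14563 RPKM in vehicle, 15986 in insulin, 13839 in glargine, 12814 in X10 and 10990 in IGF1 tumors. Most of this sum is Col1a1 (means of 11301 RPKM in vehicle, 6765 in X10 and 7525 in IGF1), whereas Vim had means of 3270, 4241 and 4127 RPKM in these groups. The median epithelial sum was 364.4, 273.1, 274.9, 310.2 and 141.3 RPKM in the same order. The part of cell composition in the results below was not tested. In tumor tissue, fewer cells of a type and less RNA per cell cannot be told apart.

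In the deposited values Cct5 and Tcp1 were the most abundant members, and the prefoldin subunits apart from Pfdn5 were the least. Cct5 had a mean of 501.6 ± 109.7 RPKM (SD, n = 50) and Tcp1 one of 437.7 ± 72.6 RPKM. Pfdn5 followed with 192.4 ± 41.4 RPKM, above Cct3 (152.7 ± 34.1) and Cct2 (128.8 ± 45.2). Pfdn1 (76.3 ± 21.0), Vbp1 (65.2 ± 16.7) and Pfdn6 (58.0 ± 15.1) came next, and Pfdn4 (33.8 ± 7.30) and Pfdn2 (31.6 ± 6.46) were lowest. Of the 9 steps between neighbours in this order, 7 passed a sign-flip permutation test over the 50 tumors (two-sided, 100000 resamples, adjusted over the 9 steps). Cct5 was above Tcp1 in 38 of 50 tumors, by 0.19 on the log2 scale (adjusted permutation p = 1.8e-05, from the smallest p that the resamples can give). The steps from Vbp1 to Pfdn6 (adjusted permutation p = 0.0604) and from Pfdn4 to Pfdn2 (adjusted permutation p = 0.0604) did not pass.

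This order depends on the length by which reads were divided. The lengths recovered from the table are 693 bases for Tcp1 and 817 for Cct5 but 1962 for Cct2 and 1932 for Cct3, although these genes encode subunits of much the same size. The transcript with the longest coding region in GENCODE M21 has 2446 bases for Tcp1, 1853 for Cct5, 1959 for Cct2 and 1977 for Cct3. Divided by those lengths instead, the recovered reads gave the order Cct5, Cct3, Cct2, Tcp1 and Pfdn5 by their means, with medians of 213.3, 145.2, 116.8, 124.7 and 93.2 reads per kilobase and M reads. Tcp1 then moved from the second to the fourth place. Cct2 and Tcp1 could then not be placed in order, with Cct2 higher in 29 of 50 tumors (adjusted permutation p = 0.669). Cct5 remained at the top and Pfdn2 (median 15.9) at the bottom. Comparisons of one gene between tumors are not touched by this length, since it is the same in every tumor.

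**Figure D1:**
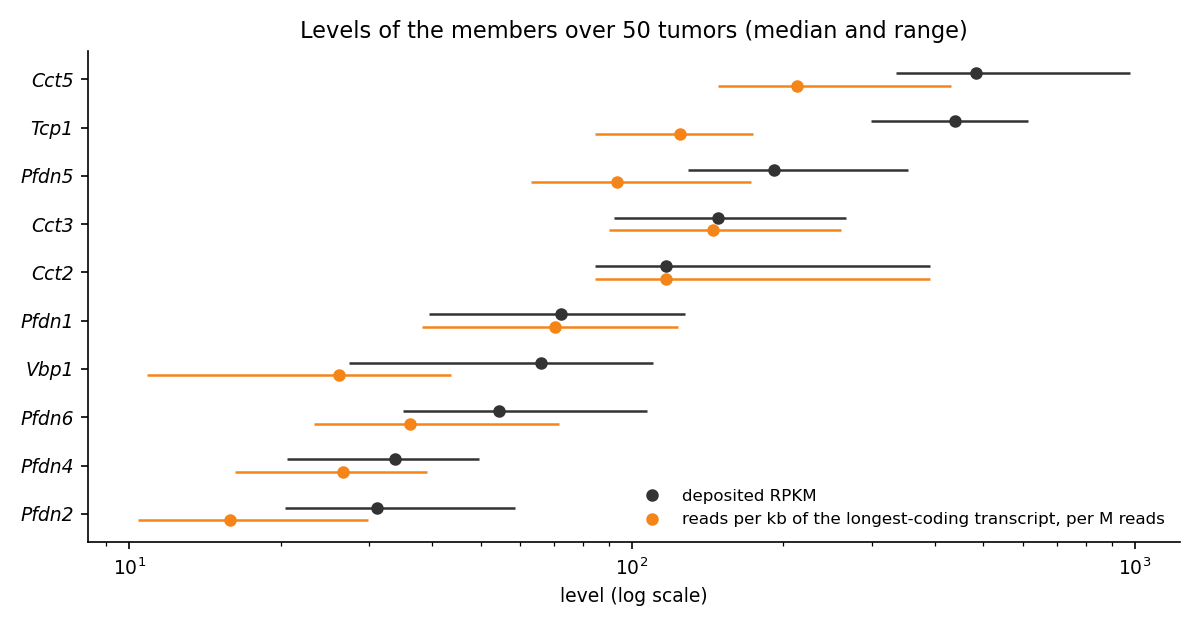
Median (point) and range (line) of each member over 50 tumors, on a log axis. Dark points are deposited RPKM, orange points are recovered reads per kilobase of the transcript with the longest coding region and per M reads; Tcp1 falls from 440.0 to 124.7, while Cct3 and Cct2 hardly move.

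Pfdn5 was between 129.2 and 353.9 RPKM in the 50 tumors. In vehicle tumors it had a lowest value of 137.7, a median of 204.8 and a highest value of 249.6 RPKM. In X10 tumors these were 184.2, 213.6 and 228.2 RPKM, the narrowest group, with a coefficient of variation of 7.22%. In IGF1 tumors they were 168.7, 198.5 and 353.9 RPKM. In insulin tumors they were 134.8, 157.3 and 191.1 RPKM, and in glargine tumors 129.2, 166.2 and 229.9 RPKM. The 2 lowest medians were those of insulin and glargine tumors, while X10 lay near vehicle. The IGF1 median was below that of vehicle, and the IGF1 mean of 225.3 RPKM rested partly on tumor IGF1_160 (353.9 RPKM); without it the mean was 211.0 RPKM.

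Of the 20 X10 and IGF1 tumors, 16 were above the highest insulin tumor, and none was below the median of the other 30 tumors (166.1 RPKM). Of those 30 tumors 6 were above the X10 and IGF1 median of 209.2 RPKM, 5 of them vehicle tumors. The difference of X10 and IGF1 from the other groups was 0.31 on the log2(RPKM + 0.5) scale. Against vehicle alone it was 0.10 for X10 and 0.17 for IGF1. These are the values by which the gene was picked, and no test is given. Without tumor IGF1_160 the difference from the other groups was 0.27 and that of IGF1 from vehicle 0.09. Without tumor Untreated_162 the difference of X10 from vehicle was 0.06, and with upper quartile scaling and quantile normalization 0.16 and 0.18. With the own-chromosome level (described further on) subtracted, the differences from vehicle were 0.07 for X10 and 0.05 for IGF1.

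Low levels under insulin and glargine are part of the difference by which Pfdn5 was picked, so these are described without a test too. Against vehicle, its log2 difference was -0.31 under insulin and -0.21 under glargine. The choice did not use IGF1 against X10. IGF1 and X10 tumors were 0.07 ± 0.11 apart (95% interval -0.14 to 0.29, limma, adjusted p = 0.816). Without tumor IGF1_160 this difference was -0.0042, and with quantile normalization -0.03.

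**Figure D2:**
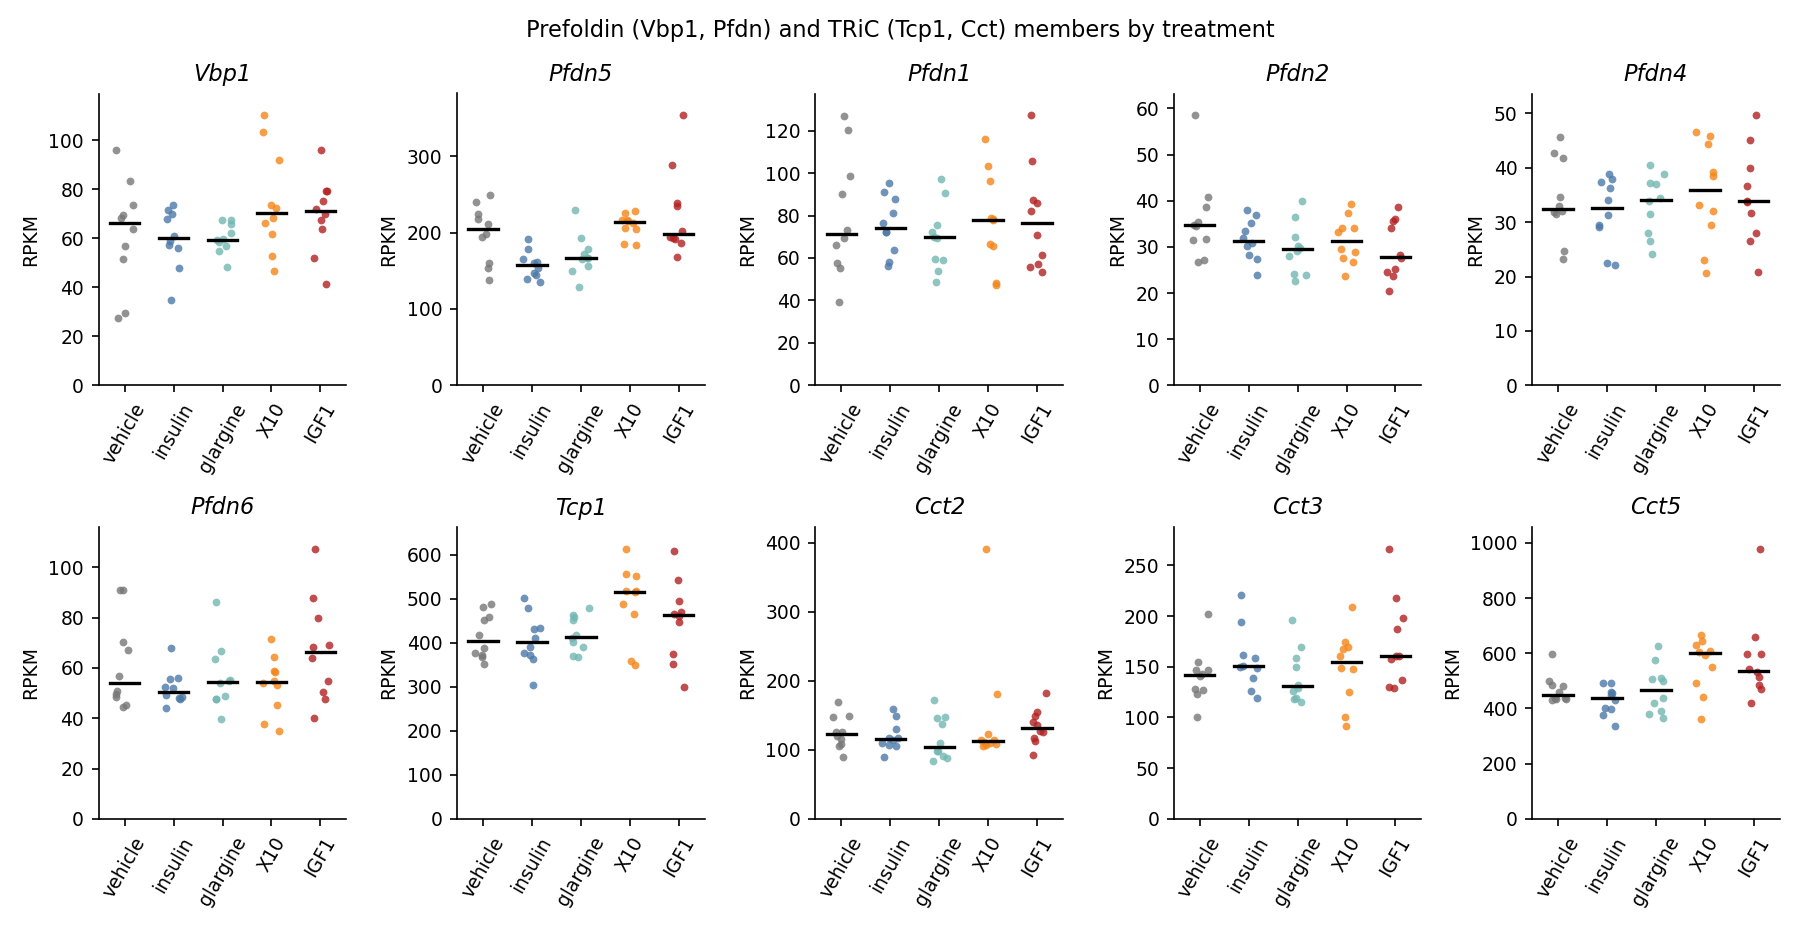
RPKM of each member (vertical axis, from 0) in the 10 tumors of each treatment; points are tumors, bars are group medians. Pfdn5 in insulin tumors lies between 134.8 and 191.1 RPKM, Cct5 has its highest medians in X10 (599.7) and IGF1 (537.2), and 1 X10 tumor stands far above all others for Cct2 (391.7).

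X10 and IGF1 tumors together were compared with vehicle, insulin and glargine tumors, as the paper groups them. The paper states that glargine too binds the IGF1 receptor more strongly, but breaks down in the body into weaker binders. Of the 9 other members none passed the limma test over all genes, against 0.155% of all 16733 genes (26 genes, 2 higher and 24 lower). With quantile normalization this split was 10 higher and 10 lower, and with upper quartile scaling 10 higher and 41 lower. With pseudogenes left out only 1 gene was called, a higher one. Leaving out single tumors gave between 16 and 46 genes. At an unadjusted p under 0.05, 3 of 9 members were called (Cct5, Vbp1 and Tcp1, each higher), against 10.5% of all genes. Of the 9 log2 differences 8 were above 0, with a median of 0.13, while the median over all genes was -0.02 and 43.6% of all genes were above 0. limma voom on the recovered reads also called none of the 9.

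Cct5, the epsilon subunit, came nearest to the threshold. It was 431.2, 449.3 and 596.6 RPKM (lowest, median and highest) in vehicle, 335.9, 439.4 and 493.1 in insulin, and 364.3, 468.4 and 627.0 in glargine tumors. In X10 tumors it was 362.1, 599.7 and 665.4 RPKM, and in IGF1 tumors 418.1, 537.2 and 979.4 RPKM. The groups overlap, but 17 of 20 X10 and IGF1 tumors were above the mean of the other 30. The log2 difference was 0.30 ± 0.07 (95% interval 0.15 to 0.45), or 1.23-fold, with an adjusted p of 0.0599 by limma. It passed with upper quartile scaling (adjusted p = 0.0494) and with proliferation as a covariate (adjusted p = 0.0396). Over all alternatives the adjusted p by limma was between 0.0396 and 0.242, the highest when pseudogenes were left out. Without tumor IGF1_145 (979.4 RPKM) the log2 difference was 0.26 (limma, adjusted p = 0.0716).

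Tcp1, the alpha subunit, showed the same order of groups. Its medians were 403.5 RPKM in vehicle, 400.8 in insulin, 413.5 in glargine, 515.9 in X10 and 463.0 in IGF1 tumors, with ranges that overlap. The log2 difference of X10 and IGF1 tumors was 0.17 ± 0.07 (limma, adjusted p = 0.312). For Vbp1 it was 0.25 ± 0.11 (limma, adjusted p = 0.385), for Cct2 0.16 ± 0.11 and for Cct3 0.13 ± 0.09. The 4 beta-type prefoldin subunits were between -0.09 (Pfdn2) and 0.06 (Pfdn6), each with an interval that includes 0.

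In X10 against vehicle, none of the 9 members passed, against 0.0657% of all genes (11, each lower; without the filter on low values 24, of which 12 were higher and 12 lower). At an unadjusted p under 0.05, 2 were called, Tcp1 (0.24 ± 0.11) and Cct5 (0.24 ± 0.12), with 11% called among all genes. In IGF1 against vehicle none passed either, against 0.00598% of all genes (1 gene). Here 3 of 9 were called at an unadjusted p under 0.05, against 8.84% of all genes. These were Cct3 (0.29 ± 0.13) and Cct5 (0.27 ± 0.12), both higher, and Pfdn2 (-0.28 ± 0.12), which was lower. With the own-chromosome level subtracted, the log2 differences of Cct3, Cct5 and Pfdn2 were 0.14, 0.15 and -0.18. The 2 comparisons share the vehicle tumors.

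Insulin against vehicle called none of the 9 members other than Pfdn5 and 0% of all genes, with 11.1% of all genes and none of the 9 at an unadjusted p under 0.05. Glargine against vehicle likewise called none of the 9 and 0% of all genes, with 6.23% at an unadjusted p under 0.05 and 1 member, Pfdn2 (-0.26 ± 0.12, limma, adjusted p = 0.789). IGF1 against X10 called none of the 10 and 0% of all genes. Here 11.7% of all genes and no member were called at an unadjusted p under 0.05. The nearest was Pfdn6, a beta-type subunit, at 0.30 ± 0.15 (limma, adjusted p = 0.435). limma voom called no member in these comparisons.

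The log2 difference of Pfdn2 from vehicle was -0.16 under insulin, -0.26 under glargine, -0.17 under X10 and -0.28 under IGF1. Its vehicle values had a lowest of 26.7, a median of 34.7 and a highest of 58.5 RPKM, the last in tumor Untreated_195. Without that tumor the differences were -0.08, -0.18, -0.09 and -0.20, the last with an adjusted p of 0.677 by limma. The median under IGF1 was 27.9 RPKM.

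**Figure D3:**
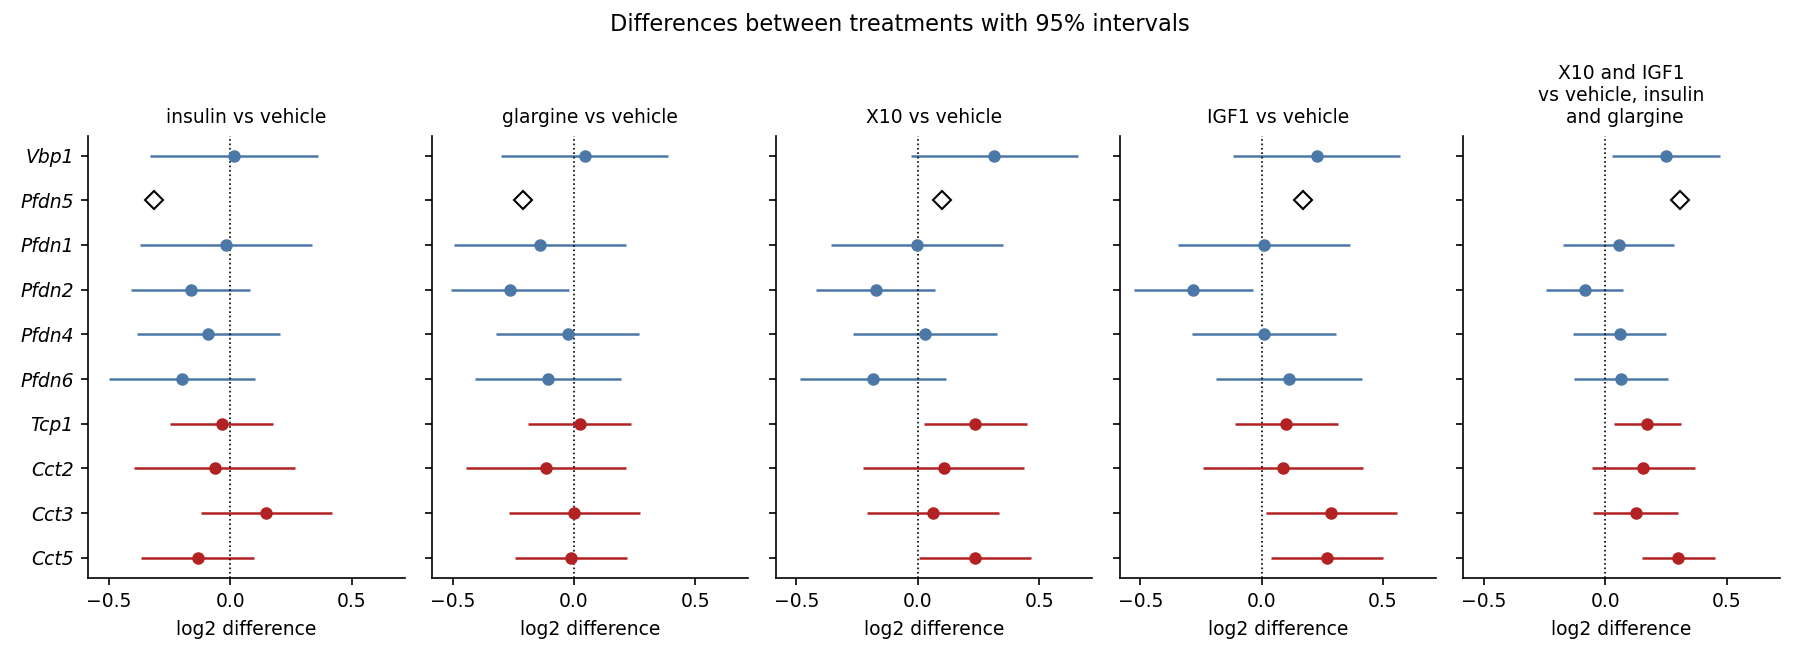
Difference of each member in log2(RPKM + 0.5) for 5 comparisons, with 95% intervals from limma (blue, prefoldin; red, TRiC). Open diamonds are Pfdn5 where its values chose it and no interval is given; the Cct5 interval in the last panel runs from 0.15 to 0.45.

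The other TRiC subunits were tested in the same 6 comparisons. Of the 5, Cct4 (delta), Cct6a (zeta), Cct7 (eta) and Cct8 (theta) were tested, and Cct6b, known as a testis form, was left out at a mean of 0.133 RPKM. None of the 4 passed, where between 0% and 0.155% of all genes did, so that no call is what the shares over all genes give too. At an unadjusted p under 0.05, 1 of 4 was called under insulin (Cct7), 2 under glargine (Cct4 and Cct7), 1 under IGF1 and 1 in the X10 and IGF1 tumors together (Cct4 in both), and none in the other 2 comparisons. Of all genes, 11.1%, 6.23%, 8.84% and 10.5% were called in the first 4 of these. For X10 and IGF1 tumors Cct4 had a log2 difference of 0.19 ± 0.07 (limma, adjusted p = 0.304), and those of the others were 0.02 (Cct8), 0.07 (Cct6a) and 0.07 (Cct7). Against vehicle Cct4 had a log2 difference of -0.09 under insulin, 0.24 under glargine, 0.19 under X10 and 0.29 under IGF1 (SE 0.11 each). Those of Cct7 were -0.53 under insulin (limma, adjusted p = 0.264), -0.40 under glargine, -0.28 under X10 and -0.20 under IGF1 (SE 0.16 each). Its insulin values were between 57.5 and 97.4 RPKM, all below the vehicle mean of 106.3 RPKM, and its vehicle values between 67.7 and 171.6 RPKM.

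Genes around these chaperones were taken by list, against the same 0% to 0.155% of all genes called in a comparison. Prefoldin-like and R2TP genes (9 tested), phosducin-like cofactors of TRiC (3 of 4 tested), tubulin cofactors (6), tubulin and actin clients (13), heat shock and other chaperones (14), proliferation genes (6), and Myc with Vhl had none with an adjusted p under 0.05 in any comparison. For X10 and IGF1 tumors their median log2 differences were 0.04, 0.04, 0.04, 0.01, 0.08, 0.09 and 0.04, beside -0.02 over all genes. Of 12 ribosomal protein genes 1 passed, Rpl30, a protein of the large subunit, higher at 0.42 ± 0.08 (limma, adjusted p = 0.0129). The lists were chosen with earlier results of these data known, so 1 of 12 cannot be weighed against the share over all genes. Medians of Rpl30 were 310.3 RPKM in vehicle, 241.0 in insulin, 269.5 in glargine, 392.9 in X10 and 356.7 in IGF1 tumors. Of the 20 X10 and IGF1 tumors 19 were above the highest insulin tumor in Rpl30.

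Members were then compared with each other over the 50 tumors. All 6 TRiC pairs had a positive Pearson r of log2(RPKM + 0.5), between 0.28 and 0.64 with a median of 0.41, and 5 passed a permutation test adjusted over all 45 pairs. Among all pairs of the 16733 tested genes, 7.52% had an r as high as the lowest that passed here (0.38), and 53.3% had an r above 0. The highest was Tcp1 with Cct5 (r = 0.64, rho = 0.66, both with an adjusted permutation p of 0.00045 and an unadjusted one of 1e-05, the smallest possible). It was positive within each of the 5 treatments, from 0.27 in insulin to 0.91 in X10 tumors, and r was 0.58 after centring within treatment. Without the 2 tumors farthest from the Tcp1 median, r was 0.69. Cct2 with Cct5 did not pass (r = 0.28, adjusted permutation p = 0.113). Of the 5 that passed, 3 no longer did under an alternative: Tcp1 with Cct3 and Cct2 with Cct3 after upper quartile scaling (adjusted permutation p = 0.062 and 0.0565), and Cct3 with Cct5 without the 2 farthest tumors (0.107). By rho, 16 of the 45 pairs passed in place of 12.

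The prefoldin subunits fell into a less even pattern. Of 15 pairs 10 had a positive r, with a median of 0.21, and 5 passed. Among all pairs of tested genes 53.3% had a positive r, and 7.52% had one of at least 0.38. These were Pfdn5 with Pfdn6 (r = 0.55, rho = 0.47), Pfdn1 with Pfdn2 (r = 0.52, rho = 0.52), Vbp1 with Pfdn4 (r = 0.49, rho = 0.53), Pfdn1 with Pfdn6 (r = 0.49, rho = 0.44) and Pfdn2 with Pfdn4 (r = 0.39, rho = 0.36). The pooled r of Pfdn5 with Pfdn6 includes the group difference by which Pfdn5 was picked. Centred within treatment it was 0.57 (adjusted permutation p = 0.00337). Adjusted permutation p-values of the others, in this order, were 0.00157, 0.0021, 0.00219 and 0.0192. Without the 2 farthest tumors r for Pfdn2 with Pfdn4 was 0.30 and no longer passed (adjusted permutation p = 0.11). The alpha-type subunits Vbp1 and Pfdn5 had r = -0.14 and rho = -0.06 over all tumors (adjusted permutation p = 0.506 and 0.736). After centring within treatment r was -0.40 (adjusted permutation p = 0.0286). Within treatments it was between -0.86 (IGF1) and 0.13 (insulin).

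Between prefoldin and TRiC, 2 of 24 pairs passed over all tumors and 1 after centring within treatment, with a median r of 0.13 over all tumors. This count is near the share over all pairs of tested genes, of which 7.52% had an r of at least 0.38. Pfdn4 with Tcp1 had r = 0.52 and rho = 0.50 (adjusted permutation p = 0.00157 and 0.00349) and was positive within all 5 treatments. Pfdn5 with Cct5 had r = 0.50 and rho = 0.48 over all tumors. These values include the group difference by which Pfdn5 was picked, so no p-value is given for them. After centring within treatment, r for Pfdn5 with Cct5 was 0.27 and did not pass (adjusted permutation p = 0.193), and within X10 tumors it was -0.10. The other 22 pairs were between -0.02 and 0.32.

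**Figure D4:**
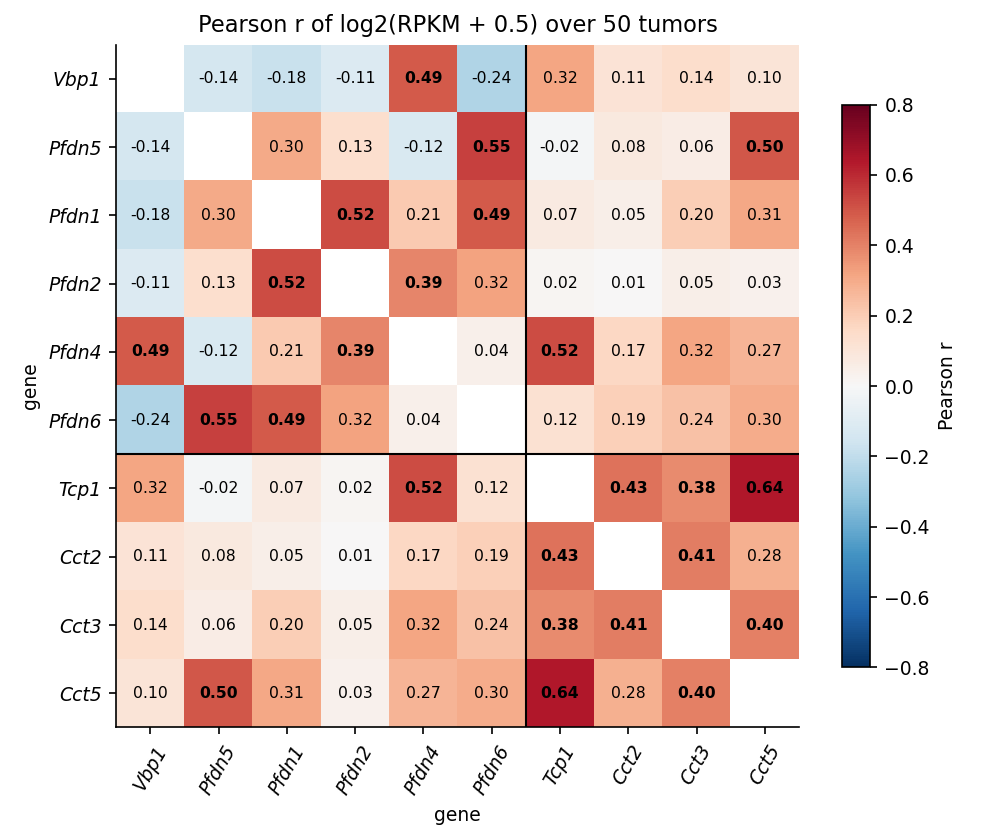
Pearson r between members over 50 tumors; rows and columns are genes, lines separate prefoldin from TRiC, and bold values have an adjusted permutation p under 0.05. The 6 TRiC pairs are all positive (0.28 to 0.64), and Vbp1 is below 0 with 4 of the 5 other prefoldin subunits. Values with Pfdn5 include the group difference by which it was picked.

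The members were also set against 5 measures over the 50 tumors, the mean log2 level of proliferation genes, heat shock and other chaperones, ribosomal proteins, and tubulin and actin clients, and Myc. Of the 50 correlations 19 passed by r, all positive, and 16 by rho. Such correlations were common among all tested genes outside each list. An r at or above the lowest that passed (0.33) was found for 20.9% of them with proliferation, 16.5% with ribosomal proteins, 13.1% with tubulin and actin clients, 7.30% with Myc and 5.71% with heat shock and other chaperones. Of the 10 members 5, 5, 5, 2 and 2 reached it. With proliferation genes 5 passed, namely Cct3 (r = 0.56, rho = 0.57), Tcp1 (r = 0.53, rho = 0.49), Vbp1 (r = 0.46, rho = 0.35), Cct2 (r = 0.43, rho = 0.38) and Pfdn4 (r = 0.40, rho = 0.28). Adjusted permutation p-values of r were 0.000583, 0.000583, 0.00561, 0.0136 and 0.0158. Without the 2 farthest tumors r for Pfdn4 was 0.33 and no longer passed (adjusted permutation p = 0.0577). Pfdn5 had r = -0.29 with proliferation (adjusted permutation p = 0.0831), and -0.45 after centring within treatment (adjusted permutation p = 0.0129).

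With ribosomal proteins, 5 other members passed. Pfdn6 (r = 0.76, rho = 0.68), Pfdn5 (r = 0.68, rho = 0.63) and Pfdn1 (r = 0.57, rho = 0.52) were highest, with adjusted permutation p-values of 0.00025, 0.00025 and 0.000583. The list itself holds Rpl30, on chromosome 15 like Pfdn5, and Rps14, on chromosome 18 like Pfdn1. Rpl30 (rho = 0.80 with Pfdn5) and Rps14 (rho = 0.75 with Pfdn1) are among the genes most like these members. Whether Pfdn5 and Pfdn1 go with the list without Rpl30 and Rps14 was not tested. Cct5 (r = 0.35) and Pfdn2 (r = 0.34) also passed (adjusted permutation p = 0.0423 and 0.0439), but Cct5 did not after centring (0.153), nor Pfdn2 by rho (0.0633) or without 2 tumors (0.0855). Cct2 had r = 0.31 (adjusted permutation p = 0.0745), and r = 0.48 without the 2 farthest tumors (adjusted permutation p = 0.00271), where it passed. With tubulin and actin clients, the proteins these complexes fold, Cct3 (r = 0.49), Cct2 (r = 0.47), Pfdn6 (r = 0.42), Pfdn4 (r = 0.33) and Cct5 (r = 0.33) passed. After centring within treatment Pfdn4 and Cct5 did not (adjusted permutation p = 0.0648 and 0.0859). With heat shock and other chaperones Cct5 was highest (r = 0.54, rho = 0.52, adjusted permutation p = 0.000583), and Pfdn4 had r = 0.35 (adjusted permutation p = 0.0423, and 0.0769 after centring). With Myc, Cct2 (r = 0.40) and Cct5 (r = 0.36) passed (adjusted permutation p = 0.0423 for both), and Pfdn5 had r = 0.11 (adjusted permutation p = 0.515). Cct2 did not pass with Myc after upper quartile scaling (0.0557), nor did Cct5 by rho (0.0785) or without 2 tumors (0.0592).

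The genes most like a member, by Spearman rho over the 50 tumors, lay largely on its own chromosome. Like Cct2 (chromosome 10) were Pa2g4 (rho = 0.89), Ptges3 (0.87) and Cdk2 (0.80), all on chromosome 10. Like Cct5 (chromosome 15) were Eif3l (0.88), Dcaf13 (0.79) and Rps19bp1 (0.79), all on 15. Like Cct3 (chromosome 3) were Rbm8a (0.84), Gar1 (0.84) and Rtca (0.82), all on 3. The same held for the 3 genes most like Vbp1 (Vma21, Syap1 and Nkrf on X, 0.76 to 0.79), Pfdn1 (Hdac3, Rps14 and Gm16286 on 18, 0.73 to 0.82), Pfdn2 (Ufc1, Nck2 and Rnf25 on 1, 0.66 to 0.75) and Pfdn6 (Lsm2, U2af1 and Ndufa11 on 17, 0.77 to 0.79).

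Other members were mixed. Like Tcp1 (chromosome 17) were Wdr43 (0.76) and Mrps10 (0.71) on 17 and Orc1 (0.73) on 4. Pfdn4 (chromosome 2) was an exception, with Smu1 (0.82) and Otud6b (0.71) on 4 and Taf1d (0.69) on 9. Like Pfdn5 (chromosome 15) were Rpl30 (0.80) and Rpl37 (0.76) on 15 and Rpl23 (0.72) on 11, all ribosomal proteins of the large subunit. Each rho with Pfdn5 includes the group difference by which it was picked, which Rpl30 shares, and none was centred within treatment. The lowest rho with Pfdn5 had Cbl (-0.74), Gm6695 (-0.74) and Mdn1 (-0.73).

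Among the 50 genes most like it, each member had more from its own chromosome than the tested genes have. For Cct2 these were 48 of 50 genes (96%), where 4.33% of all tested genes lie on chromosome 10. For Cct3 they were 46 (92%, against 4.73%), for Cct5 40 (80%, against 3.69%) and for Pfdn2 37 (74%, against 5.70%). Pfdn6 had 30, Vbp1 26, Pfdn5 and Pfdn1 13, Tcp1 11 and Pfdn4 10. The most similar subunit of the same complex ranked far lower for most members, at 375 among all genes for Cct2, 508 for Cct3 and 352 for Pfdn5. Cct5 for Tcp1 (place 13) and Tcp1 for Cct5 (place 34) were nearest.

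**Figure D5:**
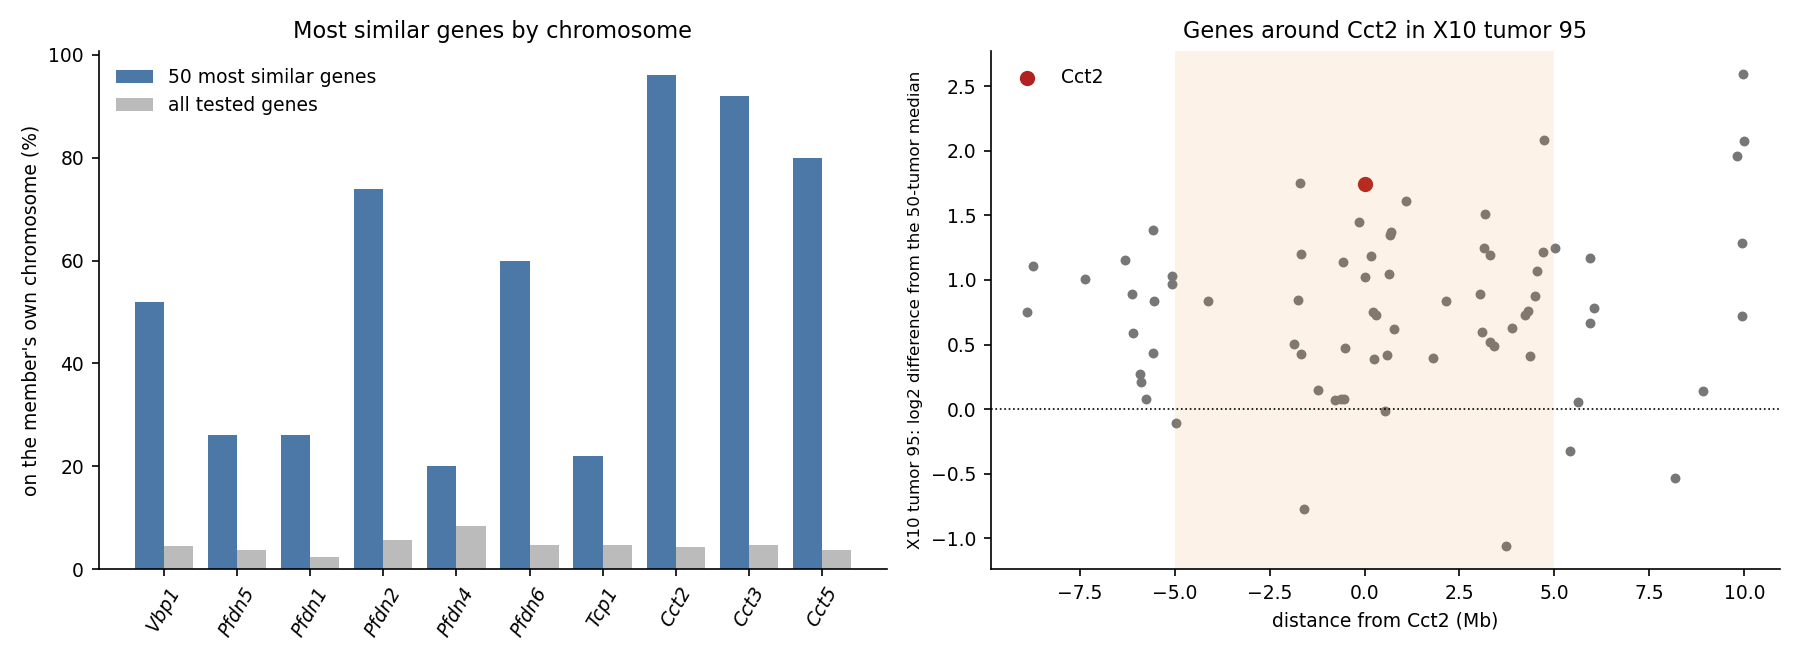
Left, percent of the 50 genes most like each member (blue) and of all tested genes (grey) that lie on the member's own chromosome; Cct2 reaches 96%. Right, genes within 10 Mb of Cct2 in tumor X10_95, as the log2 difference from their median over 50 tumors against distance in Mb; 41 of 45 neighbours within 5 Mb (shaded) are above 0.

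A level of each chromosome in each tumor was taken as the median deviation of its tested genes from their means. This measure was added after seeing the data. For 8 of 10 members the own chromosome had the highest r of all 20 chromosomes, and for Tcp1 it ranked 3 and for Pfdn1 it ranked 4. How often this holds among all tested genes was not computed. The next chromosome was close for Vbp1 (0.60 against 0.56), Pfdn4 (0.47 against 0.43), Pfdn5 (0.28 against 0.25) and Pfdn2 (0.25 against 0.21). For Pfdn2 the r with its own chromosome did not pass (adjusted permutation p = 0.0928). Pearson r with the own chromosome was 0.68 for Cct2 (rho = 0.78), 0.64 for Cct3 (rho = 0.64), 0.63 for Cct5 (rho = 0.57), 0.60 for Vbp1 (rho = 0.36) and 0.55 for Pfdn6 (rho = 0.54). Their permutation p-values for r, adjusted over the 10 members, were 2.5e-05 for the first 4 and 4e-05 for Pfdn6. Without the 2 tumors farthest from the median of the chromosome level, r was 0.69, 0.63, 0.59, 0.48 and 0.46. For Pfdn5 r was 0.28 (rho = 0.27, adjusted permutation p = 0.0645), and 0.17 without the 2 farthest tumors. After centring within treatment r for Pfdn5 was 0.14 (adjusted permutation p = 0.43). Within treatments it was between -0.12 (X10) and 0.41 (glargine), with -0.03 in IGF1 tumors.

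The level of chromosome 15, which carries Pfdn5, Cct5, Rpl30 and Myc, had a mean of 0.08 ± 0.13 (SD) on the log2 scale in IGF1, 0.01 ± 0.07 in glargine, -0.01 ± 0.13 in X10, -0.04 ± 0.15 in vehicle and -0.07 ± 0.07 in insulin tumors. These groups overlap, and their differences were not tested. With the own-chromosome level subtracted from every gene, the log2 difference of X10 and IGF1 tumors was 0.23 for Cct5 in place of 0.30 (limma, adjusted p = 0.0968), and 0.24 for Pfdn5 in place of 0.31. The level is taken off in full, whether or not a gene follows it, so the drop itself does not show that Pfdn5 follows chromosome 15. DNA copy number was not analysed here, and its part in these patterns was not tested.

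Cct2 in tumor X10_95 was the most extreme single value of the set. It was 391.7 RPKM, where the 9 other X10 tumors were between 106.2 and 181.3 RPKM and the median of all tumors was 116.6 RPKM. Genes next to Cct2 were high in the same tumor. Of the 17 tested genes within 1 Mb, 16 were above their median over all tumors, 7 of them by more than 2-fold, and of 45 within 5 Mb 41 were above it. The median of those 45 was 0.75 on the log2 scale, the highest of the 50 tumors, with 0.37 in the next tumor. The neighbours with known roles, chosen after their values were seen, include Mdm2, which encodes the main inhibitor of p53 (101.7 against a median of 49.0 RPKM), Frs2, an adaptor of growth factor receptors (15.4 against 7.30 RPKM), and Yeats4, a chromatin reader (39.0 against 16.9 RPKM). Without this tumor the log2 difference of Cct2 in X10 and IGF1 tumors was 0.07 in place of 0.16, so that it decides the value.

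Some reads may be shared with copies or overlapping genes. The pseudogenes Tcp1-ps1 and Cct3-ps1, both on chromosome 4, had medians of 4.31 and 13.9 RPKM, with ranges of 1.36 to 8.06 and 5.66 to 30.5 RPKM. Pearson r of their log2 values with those of Tcp1 and Cct3 was 0.35 and 0.59, across tumors that share depth and processing, given as a description. Pfdn5 overlaps Myg1 on the same strand. Tcp1 and Pfdn2 overlap genes on both strands, those on the same strand being Gm26130 and Snora20 (snoRNAs) for Tcp1 and Gm37154 for Pfdn2. Pfdn4 and Pfdn6 overlap genes on the other strand, while Cct2, Cct3, Cct5, Vbp1 and Pfdn1 overlap none. Levels of the overlapped members are uncertain to that extent.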

How the data were processed

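RNA of 50 mammary gland tumors was analysed. The authors sequenced Poly-A RNA on an Ion Proton, placed reads on the mouse genome GRCm38 by TopHat2 2.0.10 and Bowtie2, counted them per gene with HTSeq 0.6.1, by its default options with regard to strand, and deposited RPKM values, which are neither counts nor logged. Their DESeq2 1.2.10 analysis was not repeated. Values within a gene are whole multiples of a step. From these steps gene length, reads and library size were recovered (at least 96.9% of low values came out whole in every tumor). These lengths were within 1 base of the median transcript length of GENCODE M21 for 43.3% of the 16551 tested genes found there, and reads multiply mapped to paralogs are not resolved.

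The 16733 genes whose mean RPKM reached 0.5 were tested on log2(RPKM + 0.5) by limma 3.58.1 (R 4.3.3) with an intensity trend, 5 groups in 1 fit, and Benjamini-Hochberg adjustment over all genes at 0.05. Fold changes on this scale understate changes of low genes. Each treatment was compared with vehicle, IGF1 with X10, and X10 and IGF1 with the other groups. The methods of the study use a count test, and limma was used since the deposited unit is RPKM. Tumors titled untreated were taken as vehicle. Tumors are separate animals. Permutation tests were two-sided with 100000 resamples (Python 3.11.15, numpy 2.4.6, scipy 1.17.1, pandas 2.3.3; figures, matplotlib 3.10.9). Where the 2 farthest tumors were left out of a pair of members, they were those farthest from the median of the gene named first. For a partner list they were those farthest from the median of the list, not of the member. Scripts were tested on simulated data.

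The members and gene lists were chosen with earlier results of these data known. Named are the 10 members, the 5 other TRiC subunits, list genes with an adjusted p under 0.05 (at most 5 per list and comparison), the 3 genes most like each member, the 3 least like Pfdn5, and pseudogenes named after a member; genes next to Cct2 were added after seeing their values. Of the 10 members 9 had a promoter window in the RefSeq table. Where a member had several windows, the one nearest its GENCODE start was used. Alternatives were pseudocounts of 0.1 and 1, no filter or a mean RPKM of at least 5, upper quartile scaling, quantile normalization, no trend, only the groups compared, and proliferation as a covariate. Added after seeing the data were library size as a covariate, leaving out pseudogenes, voom on recovered reads, subtracting the own-chromosome level, leaving out single tumors, and the coding transcript length.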

Additional observations from a re-analysis of the deposited data

Results flagged for a closer look

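In 50 groups of 10 tumors (10 members in 5 treatments) the highest or lowest tumor was checked for a gap to its neighbour that is large for the group's range by Dixon's test, which chance alone gives in about 1 of 20 groups. There were 6 such tumors, all high ones. Cct2 in tumor X10_95 was 391.7 RPKM, with a gap of 0.737 of the range to the next (181.3 RPKM), and is described above with its neighbours within 5 Mb. The level of chromosome 10 there was 0.22, the third highest. Cct5 in tumor IGF1_145 was 979.4 RPKM, above 657.9 in the next tumor, and the level of chromosome 15 in this tumor was the second highest of 50 (0.24 on the log2 scale). The 37 tested genes within 5 Mb had a median deviation of 0.14 (place 11 of 50). Cct5 in tumor Untreated_161 was 596.6 RPKM, with the other vehicle tumors between 431.2 and 500.5 RPKM. There the same neighbours were at -0.16 (place 42) and chromosome 15 at 0.12 (place 10). Pfdn2 in tumor Untreated_195 was 58.5 RPKM, with 40.9 RPKM in the next, while the 104 tested genes within 5 Mb had a median deviation of 0.14 (place 1) and chromosome 1 was at place 28. Cct3 in tumor Untreated_162 was 202.2 RPKM, with 154.4 RPKM in the next, its neighbours within 5 Mb at 0.04 (place 23) and chromosome 3 at 0.11 (place 15). Pfdn6 in tumor insulin_37 was 68.0 RPKM, with 55.9 RPKM in the next, and chromosome 17 was at its second highest level there (0.20), with the neighbours within 5 Mb at 0.14 (place 9).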

How the results depend on the processing

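No paired analysis was possible because the mouse numbers are not shared between treatments. Of the 9 members tested between X10 or IGF1 tumors and the other groups none was called, but with upper quartile scaling and with the proliferation covariate 1 was called, Cct5 (log2 difference 0.32 and 0.29). Of 1091 tested values of single members under an alternative, 1089 stayed on the same side of the threshold, and 52, none of them called, changed sign (reported sizes up to 0.15). A fit of only the groups compared is the same as the fit of all groups in this comparison. Counts over all genes moved more, from 0.155% of the genes tested (26) to between 0.00681% (pseudogenes left out) and 0.765% (proliferation covariate), in X10 against vehicle from 11 to between 1 (library size covariate) and 24 (no filter, 12 higher), in IGF1 against vehicle from 1 to between 0 and 3, and in insulin against vehicle from 0 to between 0 and 2. The cause was not tested. Of 45 pairs between members 10 to 13 passed by r over the alternatives and 12 as reported (16 by rho), of 50 with the partner lists 17 to 19 and 19 as reported (16 by rho), and of 9 steps between levels 7 in each case. The 95% intervals of the members against vehicle reach about 0.2 to 0.35 on the log2 scale to each side, and some differences whose own interval left out 0, such as 0.27 for Cct5 under IGF1, were not called either after adjustment over all genes.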
